A study of Mus musculus with 4 samples.

Results

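The cells described here are the GABA neurons and the glutamate neurons of the hypothalamus at postnatal day 7 (P7), 1956 of the 43261 cells in the series. They were chosen by their own transcripts, counted as unique molecular identifiers (UMIs), each of which stands for 1 captured RNA molecule. Of 8917 cells at P7, 2825 had at least 10 UMIs of the neuronal genes Stmn2, Snap25 and Syt1 together. The GABA side held the 1357 neurons with at least 3 UMIs of Gad1, Gad2 and Slc32a1 together and 0 of Slc17a6. The glutamate side held the 599 neurons with at least 3 UMIs of Slc17a6 and 0 of those 3 GABA genes.

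The study followed cells of the hypothalamic neuroepithelium through development in mice of genotype Rax-CreERT2::Ai14, strain C57BL/6J, per the labels. In these mice tamoxifen activates Cre in cells that express Rax, a gene of the early hypothalamic neuroepithelium, and switches on the red reporter tdTomato in them and their descendants. Per the labels, all 4 ages (E11, E14, P0 and P7) received the same single embryonic dose and were sorted for live tdTomato-positive cells, so unlabelled neurons were not sampled and no unlabelled control was compared. Each age is 1 sample, named here as in the titles; the age labels give E11.5, E14.5, P0 and P7.5. With 1 sample, no test between the sides was possible: values are given with intervals that cover counting error only, and a gene is called higher on a side by its size.

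GABA and glutamate are the main inhibitory and excitatory transmitters of the brain. GABA neurons make their transmitter with the glutamate decarboxylases that Gad1 and Gad2 encode and load it into vesicles with the transporter encoded by Slc32a1, while most glutamate neurons of the hypothalamus load vesicles with the transporter encoded by Slc17a6. The hypothalamus holds both kinds side by side in small nuclei that govern feeding, growth, water balance, daily rhythm and reproduction. Its neurons also release peptides, and homeodomain and other transcription factors that act in the progenitors and young neurons of each nucleus set which kind forms.

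Among the neurons at P7, 48.0% were on the GABA side (exact Clopper-Pearson 95% interval, 46.2 to 49.9%) and 21.2% on the glutamate side (19.7 to 22.8%). Another 532 neurons (18.8%) had UMIs of both kinds, of which 109 had at least 3 of each, 99 (3.5%) had neither, and the rest had 1 or 2 UMIs of 1 kind. Some cells stood at the edge of the choice: 57 cells of the GABA side had exactly 3 GABA UMIs and 50 cells left out had exactly 2. Of the glutamate side, 64 cells had exactly 3 Slc17a6 UMIs, and 53 left out had exactly 2. With at most 1 UMI of the other side allowed, the sides would hold 1483 and 764 cells. At the neuron minimum, 10 cells of either side stood at exactly 10 UMIs, and 7 cells that met the other terms were left out with 9. Median GABA UMIs per cell of the GABA side were 14 (highest 98), and median Slc17a6 UMIs per cell of the glutamate side were 9 (highest 53). On the GABA side Gad1 was found in 96.2% of cells, Slc32a1 in 93.4% and Gad2 in 85.0%, and 1037 cells (76.4%) had all 3. The choice set these values, so they describe the sides and support nothing.

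The sides differed in depth. Cells of the GABA side had a median of 18274 UMIs and 5367 genes, and cells of the glutamate side 24220 UMIs and 6133 genes. Summed counts were therefore scaled to CPM (counts of a gene per 1000000 UMIs) of each side's total, which was 26784182 UMIs for the GABA side and 14473336 for the glutamate side. Glial markers were present on both sides. The precursor and astrocyte lists were higher on the GABA side in all 6 and all 7 of their genes (log2 0.20 to 0.46 and 0.26 to 0.94, on the CPM + 5 scale described below). The source of these UMIs was not tested. Without cells holding 3 or more glial UMIs, 105 of the 106 genes named below stayed past 2-fold. The oligodendrocyte precursor list (6 genes, Pdgfra among them) summed to 156 CPM on the GABA side and 112 CPM on the glutamate side, against 5945 CPM in 1998 P7 cells with Pdgfra UMIs and almost no neuronal UMIs. The astrocyte list summed to 243 and 161 CPM, against 669 CPM in those cells, and the oligodendrocyte list to 114 and 101 CPM, against 398 CPM. At least 3 UMIs of glial markers were found in 272 of the 1357 GABA-side cells and 115 of the 599 glutamate-side cells (19.2%). Those Pdgfra cells serve below as a rough measure of free RNA, which gives a droplet some UMIs of genes its cell does not express. Their median depth was 8022.5 UMIs, below that of either side. An equal amount of free RNA would be a larger share of their UMIs. These cells can also express a gene themselves, so a level near theirs does not show that a gene's UMIs are free RNA. Of the marker genes past the expression filter described below, 3 of 7 for oligodendrocytes, 6 of 6 for their precursors, 7 of 7 for astrocytes and 5 of 7 for tanycytes and ependyma, none was called on either side; 0 of 12 for microglia, vessels and fibroblasts passed it, so none of those could be called. The reporter tdTomato itself stood at 690 CPM on the GABA side and 755 CPM on the glutamate side. Of the 1956 cells, 14 carried a barcode that also occurs in another library of the series.

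Genes were compared as the log2 ratio of CPM + 5, GABA side over glutamate side, so that a positive value means higher on the GABA side; adding 5 CPM understates the ratio of low genes. Among 11295 genes with a mean of at least 5 CPM over the sides, 136 (1.20%) were at least 2-fold higher on the GABA side and 207 (1.83%) on the glutamate side. These counts depended on the 5 CPM added: they were 209 and 325 with 1 CPM and 57 and 101 with 20 CPM, at which 33 of 106 named genes were no longer past 2-fold. The median log2 ratio of the 11295 genes was 0.04. The 7 genes of the choice include 4 of the calls at 5 CPM and are not counted as results.

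**Figure D1:**
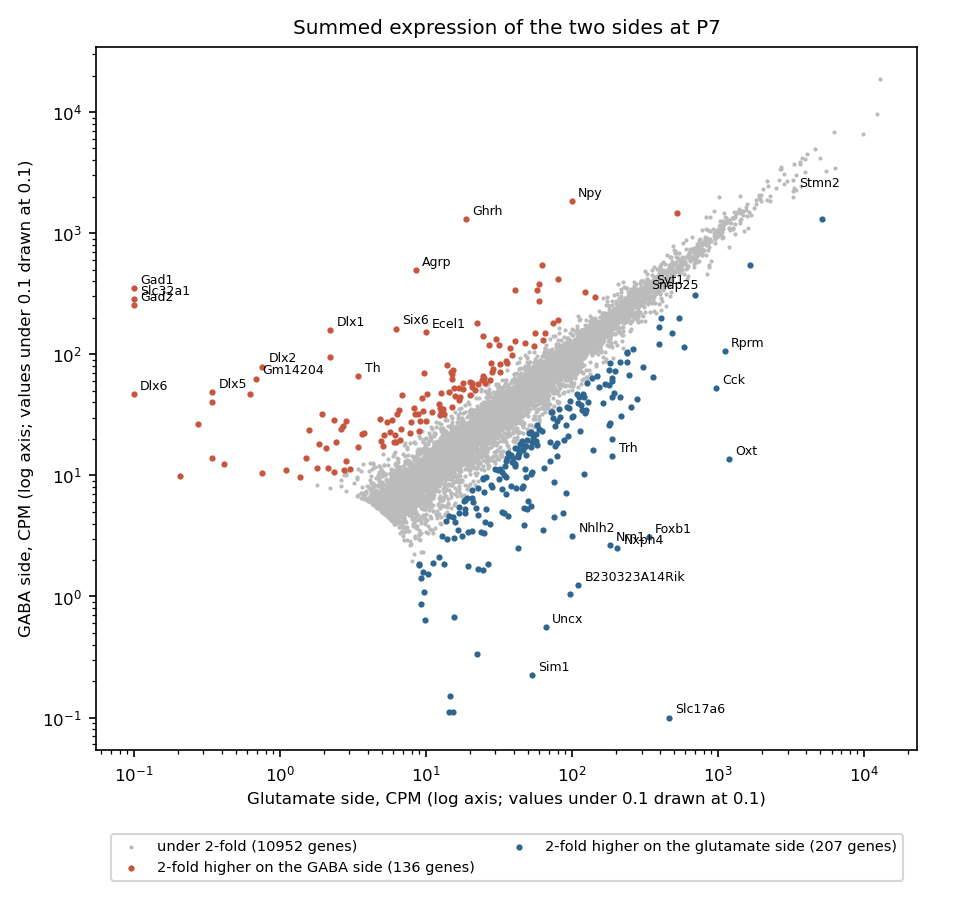
Each point is 1 gene at P7, with its summed CPM in the 599 cells of the glutamate side on the horizontal axis and in the 1357 cells of the GABA side on the vertical axis, both on log axes. Coloured points are the genes at least 2-fold apart on the CPM + 5 scale (136 and 207 genes), and most of the other genes lie along the diagonal.

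A neighbour gene on the opposite strand was called beside a gene of each side. Gm14204, a processed transcript, starts next to Slc32a1, whose own values the choice fixed, and was at 62.9 CPM on the GABA side and 0.691 CPM on the glutamate side (log2 3.58), found in 65.1% and 1.67% of cells. On the glutamate side Lhx1, a LIM-homeodomain gene, and its divergent neighbour Lhx1os, a long non-coding RNA gene, were the pair: Lhx1 was at 36.4 CPM on the GABA side and 253 CPM on the glutamate side (log2 -2.64), and Lhx1os at 31.2 and 218 CPM (log2 -2.62). These pairs do not overlap; in the annotation (GENCODE M21, GRCm38) Gm14204 spans chr2:158595472-158610723 on the minus strand and Slc32a1 chr2:158610767-158615748 on the plus strand, and Lhx1 spans chr11:84518284-84525535 on the minus strand and Lhx1os chr11:84525660-84535831 on the plus strand. The sequence upstream of Slc32a1 and of Lhx1 is shown because both genes of each pair start at it, in opposite directions. The letters are RefSeq's for GRCm38.p6, 5′ to 3′ on the strand of the named gene, for chr2:158610508-158610757 (plus) and chr11:84525536-84525784 (minus). Capitals mark the bases between the 2 gene starts, 34 bases at Slc32a1, as far as the RefSeq window reaches, and 124 at Lhx1.
Slc32a1: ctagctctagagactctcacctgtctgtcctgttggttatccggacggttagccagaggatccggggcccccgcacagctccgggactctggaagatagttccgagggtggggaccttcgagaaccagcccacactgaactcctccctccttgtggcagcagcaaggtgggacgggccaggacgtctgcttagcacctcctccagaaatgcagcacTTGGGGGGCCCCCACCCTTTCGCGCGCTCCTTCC
Lhx1: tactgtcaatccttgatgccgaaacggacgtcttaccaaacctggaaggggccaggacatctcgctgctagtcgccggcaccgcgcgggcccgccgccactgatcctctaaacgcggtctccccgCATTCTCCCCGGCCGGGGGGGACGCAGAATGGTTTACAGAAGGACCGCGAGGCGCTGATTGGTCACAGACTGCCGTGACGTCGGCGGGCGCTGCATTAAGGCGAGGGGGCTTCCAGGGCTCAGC
In both windows the lower-case bases lie within the partner gene. A pair of short motifs was searched in the promoter windows of all genes: TAATTA, a core that homeodomain proteins bind, and CAGCTG, a core that basic helix-loop-helix proteins bind, both of which read the same on either strand. TAATTA was in 3 of the 105 windows matched to GABA-side genes (2.86%), in 4 of 135 for glutamate-side genes (2.96%), and in 2.01% of the windows of all genes past the filter. CAGCTG was in 12%, 13% and 11%. A match or its lack in these windows says only whether the letters are there.

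Other pairs overlap on opposite strands, and whether the authors' counting used strand is not given in the sources used here, so their reads cannot be told apart: Foxb1 with B230323A14Rik (2201 shared bases), Dlx6 with Dlx6os1 (5235), Six3 with Six3os1 (4791) and Cbln1 with Gm2694 (4205). In each of these pairs both genes were called on the same side.

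Transcription factor genes divided in both directions. The Dlx genes, homeodomain factors that direct GABA neuron formation, were on the GABA side: Dlx1 was at 157 CPM against 2.21 CPM on the glutamate side (log2 4.49, interval 4.28 to 4.68), Dlx2 at 79.0 against 0.760 CPM (log2 3.87), Dlx5 at 48.9 against 0.345 CPM (log2 3.33) and Dlx6 at 46.7 CPM against no UMI in the 599 cells. Against a floor of 3 UMIs on the glutamate side, Dlx6 was at least 225-fold higher. Each was spread over many cells, with Dlx1 found in 55.8% of GABA-side cells and Dlx6 in 44.0%, and their highest counts in any glutamate-side cell were 2 UMIs (Dlx1, Dlx2), 1 UMI (Dlx5) and 0. Isl1, a LIM-homeodomain gene of the arcuate nucleus and other ventral regions, was at 180 against 22.6 CPM (log2 2.75).

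Of the 20 genes listed as GABA neuron transcription factors, 12 passed the filter and 11 of these were called, all on the GABA side (median log2 2.67). Counts for this and the following lists are read beside all genes, of which 1.20% were called on the GABA side and 1.83% on the glutamate side. The lists were chosen with earlier results of these data known, so the counts are not independent support. Gsx1, Six3, Meis2 and Prox1 were also among the called genes. So was Dlx6os1, an antisense RNA gene listed with the factors and not a count independent of Dlx6. Not all of the called genes were low outside neurons in this library: in the Pdgfra cells Six3 stood at 121 CPM, Gsx1 at 78.7 CPM and Meis2 at 50.1 CPM, the last 2 above their level on the GABA side.

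Six6, a homeodomain gene of the ventral hypothalamus and the suprachiasmatic nucleus, the body clock, was the largest difference among the other regional factors (163 against 6.22 CPM, log2 3.90). With it were Rora (142 against 24.6 CPM), a nuclear receptor of the clock's gene network, Zic1 (120 against 27.1 CPM), Hmx2, Hmx3, Tbx3, Rorb, Pbx3 and Nr2f2: 9 of the 24 regional factors past the filter were called on the GABA side and 5 on the glutamate side.

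On the glutamate side the largest transcription factor difference was Foxb1, a forkhead gene of the mammillary body at the back of the hypothalamus. Foxb1 was at 3.10 CPM on the GABA side and 337 CPM on the glutamate side (log2 -5.40, interval -5.56 to -5.23), found in 5.31% and 56.6% of cells, and its highest count in any GABA-side cell was 5 UMIs against 66. Nhlh2, a helix-loop-helix gene of peptide neurons, was at 3.17 against 101 CPM (log2 -3.70), Uncx at 0.560 against 66.5 CPM (log2 -3.68) and Sim1, needed for the paraventricular and supraoptic nuclei, at 0.224 against 53.1 CPM (log2 -3.47). Sim1 was found in 52.8% of glutamate-side cells and 0.442% of GABA-side cells.

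Of the 25 genes listed as glutamate neuron transcription factors, 14 passed the filter, 9 of these were called on the glutamate side and 1 on the GABA side (median log2 -2.0). Neurod1, Lhx5, Fezf1 and Ebf3 were also called on the glutamate side. The exception was Tcf7l2, an effector of Wnt signalling, at 21.7 CPM on the GABA side and 6.15 CPM on the glutamate side (log2 1.26), against 89.7 CPM in the Pdgfra cells. Among regional factors Lhx1, Nkx2-1 (42.5 against 279 CPM), Onecut2, Zfhx4 and Pou3f2 were called on the glutamate side.

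**Figure D2:**
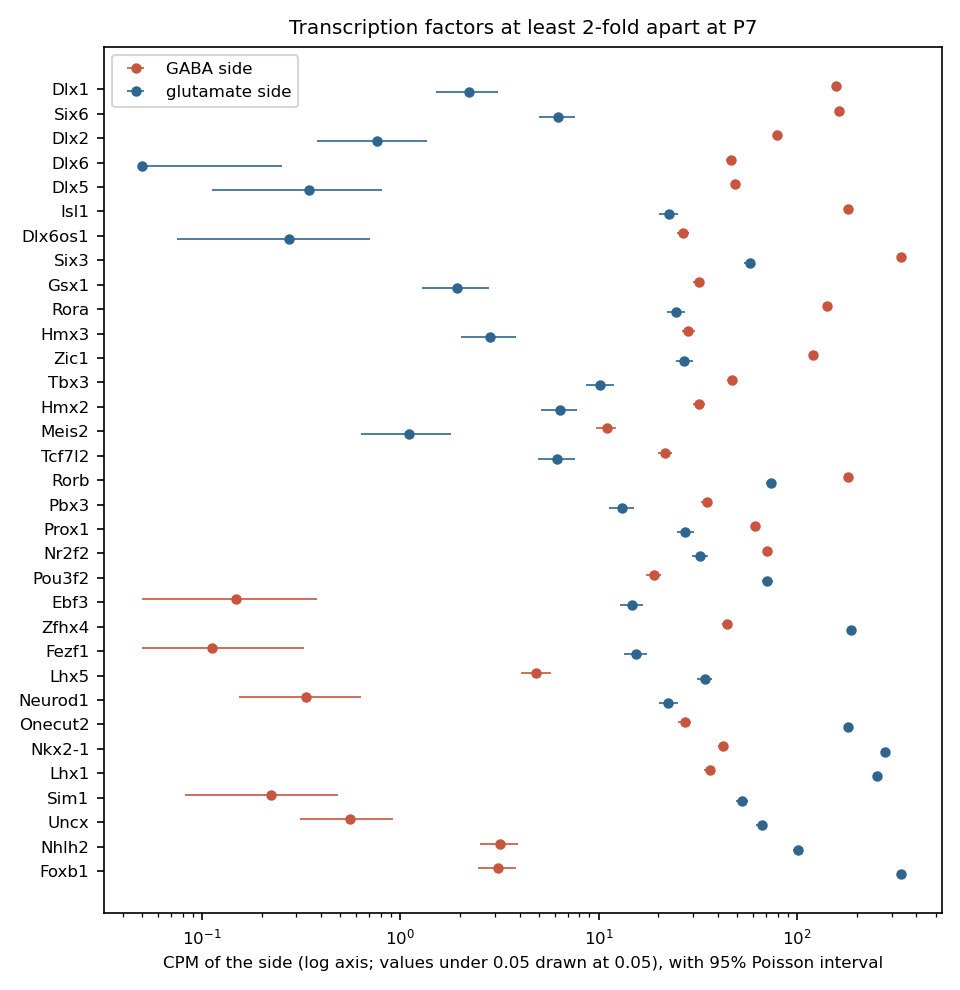
Summed CPM of each side for listed transcription factor genes, and the antisense gene Dlx6os1, at least 2-fold apart at P7, on a log axis with exact Poisson 95% intervals for counting error; values under 0.05 are drawn at 0.05. Dlx1 and Six6 head the GABA side and Foxb1 and Nhlh2 the glutamate side, and the sides' intervals do not overlap for any gene shown.

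Otp, a homeodomain gene needed for several peptide neuron types, did not divide the sides: it stood at 100.02 CPM on the GABA side and 99.91 CPM on the glutamate side (log2 0.00, interval -0.12 to 0.13) and was found in 18.3% and 22.0% of cells. In every other run with at least 50 cells a side, Otp was higher on the glutamate side (log2 -2.73 in P0 run 1, -1.32 in P0 run 2, -2.04 in E14 run 2 and -3.52 in E11 run 2).

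Peptide genes divided in both directions. Of the 34 in the list, 25 passed the filter, 10 were called on the GABA side and 11 on the glutamate side (median log2 -0.54). The share of cells with any UMI was close to the free RNA measure for some of these genes and not for others. Npy had a UMI in 53.6% of GABA-side cells and 62.8% of glutamate-side cells, and after each cell was thinned to 5000 UMIs in 25.1% and 27.8%, against 21.9% of the Pdgfra cells. Thinned in the same way, Cck had a UMI in 11.7% of GABA-side cells, 62.5% of glutamate-side cells and 6.46% of the Pdgfra cells, and Adcyap1 in 1.48%, 21.7% and 0.235%. Cells with at least 10 UMIs were counted instead, a number chosen after the values had been seen.

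Ghrh, which encodes the hormone that makes the pituitary release growth hormone, was at 1307 CPM on the GABA side and 18.9 CPM on the glutamate side (log2 5.78, interval 5.63 to 5.93). The glutamate-side level was close to that of the Pdgfra cells, 18.4 CPM, and the source of those UMIs was not tested. At least 10 Ghrh UMIs were found in 98 GABA-side cells and 1 glutamate-side cell, with up to 899 UMIs in a cell. Agrp, which encodes a peptide that drives feeding, was at 492 against 8.57 CPM (log2 5.19), with at least 10 UMIs in 99 cells and 0 cells. Npy, which the same feeding neurons release, was at 1851 against 99.6 CPM (log2 4.15), with at least 10 UMIs in 138 and 28 cells. Cells with at least 10 UMIs made up 7.22% of the GABA side for Ghrh and 7.30% for Agrp, and the Agrp cells held 12903 of the side's 13177 Agrp UMIs.

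Gal, the galanin gene, was at 383 against 59.5 CPM (log2 2.59; 204 and 20 cells with at least 10 UMIs). Vip and Npw rested on few cells: 14 and 10 GABA-side cells had at least 10 UMIs, and none on the glutamate side. Penk, Pomc, Nms and Prok2 were the remaining peptide genes called on the GABA side. Th, which encodes the first enzyme of dopamine synthesis, was at 65.5 against 3.45 CPM (log2 3.06). Slc18a3, the vesicular acetylcholine transporter gene, was at 19.0 against 2.42 CPM (log2 1.69), and both were among 7 of 13 monoamine, acetylcholine and nitric oxide genes past the filter. The dopamine transporter gene Slc6a3 stayed at 1.19 and 0.622 CPM.

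Cck, the cholecystokinin gene, had the largest share of cells with at least 10 UMIs among the called peptide genes. Its sums were 52.7 CPM on the GABA side and 972 CPM on the glutamate side (log2 -4.08, interval -4.17 to -3.99), with at least 10 UMIs in 34 and 303 cells, or 2.51% and 50.6%. Trh, which starts the hormone cascade to the thyroid, was at 14.52 against 190 CPM (log2 -3.32; 6 and 36 cells with at least 10 UMIs). Cartpt (67.7 against 244 CPM), Tac1 (39.6 against 164 CPM), Adcyap1, Nts, Grp, Pdyn and Nmu were also called there. Within the glutamate side, Cartpt and Nts were highest in cells with Foxb1, with values given below. Cartpt stood at 397 CPM in the GABA-side cells with at least 10 Ghrh UMIs.

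Oxt, the oxytocin gene, had the largest log2 ratio of all named genes (-6.01) on 13.7 CPM for the GABA side and 1198 CPM for the glutamate side. It rested on 5 cells with at least 10 UMIs, the highest with 4493, and the top 1% of glutamate-side cells held 98.8% of the side's Oxt UMIs. The Pdgfra cells stood at 15.4 CPM, close to the GABA side.

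Avp, the vasopressin gene, gave opposite orders by its sum and by its cells. Its sum was 1303 CPM on the GABA side and 5136 CPM on the glutamate side (log2 -1.97), yet at least 10 UMIs were found in 217 GABA-side cells (16%) and 19 glutamate-side cells (3.17%). The highest glutamate-side cell held 9531 Avp UMIs and the highest GABA-side cell 629, and any Avp UMI was found in 81.3% and 81.5% of cells, with 106 CPM in the Pdgfra cells. The top 1% of cells held 46.1% of the Avp UMIs of the glutamate side and 19.6% of those of the GABA side. Cells with at least 10 Avp UMIs were thus more frequent on the GABA side, while the glutamate-side sum lay in fewer cells with higher counts.

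**Figure D3:**
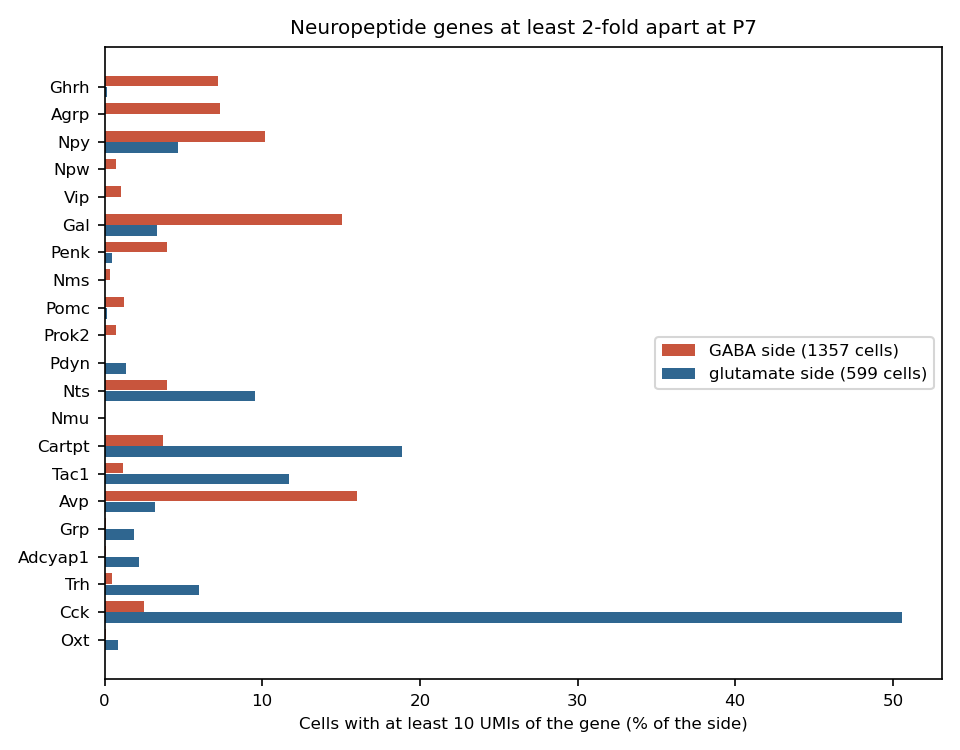
Share of the 1357 GABA-side cells and 599 glutamate-side cells at P7 with at least 10 UMIs of each peptide gene that was at least 2-fold apart by its sum. Cck reaches 50.6% of the glutamate side, no bar of the GABA side passes the 16% of Avp, and Oxt, the largest difference by sum, reaches 0.835%.

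Of 17 genes of the secretory granule and of secreted synapse proteins, 3 were called on the GABA side and 4 on the glutamate side. Scg2, which encodes a granin packed with peptides, was at 1479 against 521 CPM (log2 1.5) and had at least 10 UMIs in 70.2% and 38.7% of cells. Vgf, a nerve growth factor-induced precursor, was at 326 against 123 CPM (log2 1.38), and Cbln4 at 62.7 against 24.6 CPM. Bdnf, a neurotrophin that excitatory neurons release, was at 4.85 CPM on the GABA side and 86.4 CPM on the glutamate side (log2 -3.21), found in 5.23% and 55.6% of cells. Cbln1 and Cbln2, which encode synapse organizers, were at 8.74 against 75.4 CPM and 26.1 against 179 CPM, and Nptx2 at 19.2 against 56.4 CPM. Genes outside the lists were high on the glutamate side in most cells: Nxph4, a neurexophilin gene, at 2.50 against 205 CPM (log2 -4.81) and Nrn1, a neuritin gene, at 2.65 against 182 CPM (log2 -4.61). Rprm, a cell cycle inhibitor gene, was at 106 against 1119 CPM (log2 -3.35), but also at 327 CPM in the Pdgfra cells. Ecel1, an endopeptidase gene of neurons, was at 154 against 10.0 CPM (log2 3.40).

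The counts of receptor and channel genes are read beside the 1.20% of all genes called on the GABA side and the 1.83% called on the glutamate side. Of 19 GABA and glycine receptor and chloride transporter genes past the filter, 3 were called, all on the GABA side: Gabre (81.3 against 13.9 CPM, log2 2.19) and Gabrq, which encode subunits typical of hypothalamic GABA receptors, and Gabrg3. Of 24 glutamate receptor genes, 4 were called on the glutamate side, among them the metabotropic receptor genes Grm2 (4.52 against 74.9 CPM, log2 -3.07), Grm4 and Grm7. The NMDA receptor subunit gene Grin2c was called on the GABA side (12.4 against 0.415 CPM). Within the glutamate side, Grm2 lay mostly in cells with Foxb1, with values given below. Of 24 peptide, hormone and amine receptor genes past the filter, 5 were called on the GABA side: Npy2r, Calcr, Ghr, Drd1 and Avpr1a (log2 1.39 to 1.79). Ghr stood at 235 CPM in GABA-side cells with at least 10 Agrp UMIs and 119 CPM in those with at least 10 Ghrh UMIs. It stood at 15.4 CPM in the 892 GABA-side cells with fewer than 10 UMIs each of Avp, Agrp, Ghrh and Sst. The whole glutamate side stood at 12.6 CPM. Galr1 was called on the glutamate side (log2 -1.03). The leptin receptor gene Lepr stood at 0.859 and 0.0691 CPM, under the filter.

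Of 39 channel and calcium-binding protein genes, 35 were not called. Calb1, which encodes a calcium buffer, was at 115 against 585 CPM (log2 -2.30) and Cacna2d1, a calcium channel subunit gene, at 78.2 against 308 CPM (log2 -1.91), while Cacna2d3, another member of that subunit family, was on the GABA side (68.8 against 15.2 CPM, log2 1.87) with Kcnab1. Among adhesion and guidance genes, 2 of 40 were called on the GABA side and 8 on the glutamate side. Nrxn3, a presynaptic neurexin gene, was at 415 against 81.0 CPM (log2 2.29) and found in 96.8% and 48.4% of cells, with Unc5d on the same side. Epha7, an ephrin receptor gene, was at 10.3 against 121 CPM (log2 -3.05), and Cdh8, Cadm2, Nrp2, Nrp1, Epha4, Robo2 and Unc5c were on the glutamate side with it. Epha7 also lay mostly in glutamate-side cells with Foxb1. Of 24 maturation genes 3 were called, all on the glutamate side: the neurofilament genes Nefl (149 against 486 CPM) and Nefm (59.6 against 187 CPM), and Camk4. Within the glutamate side, Nefl and Nefm were highest in cells with Foxb1, with values given below. In GABA-side cells with at least 10 Ghrh UMIs they reached 428 and 341 CPM. The synaptic vesicle and release list, without the genes of the choice, had 22 of 25 genes uncalled, and none of the 13 immediate early genes past the filter was called.

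None of the 4 glutamate handling genes past the filter, outside the choice, was called, and the other vesicular glutamate transporter genes Slc17a7 and Slc17a8 stood at 0.149 and 0.207 CPM and at 2.61 and 2.97 CPM.

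Neither side was uniform. The peptide genes Avp, Agrp, Ghrh and Sst, taken after their values had been seen and each at 10 or more UMIs, marked nearly separate groups of 217, 99, 98 and 54 cells of the GABA side, with 3 cells carrying more than 1 of these genes and 892 cells (65.7%) carrying none. The Agrp cells held Otp in 100% (99 of 99), at least 10 Npy UMIs in 99.0%, Isl1 in 98.0%, Tbx3 in 94.9% and Six6 in 92.9%, but Dlx1 in 6.06% and Dlx2 in 2.02%. Among GABA-side cells outside them, Otp was found in 11.8% and Dlx1 in 59.7%. In the Agrp cells Npy reached 15582 CPM and Otp 571 CPM, with Dlx1 at 2.43 CPM.

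The Ghrh cells had another combination: Isl1 in 96.9%, Dlx1 in 94.9% and Gsx1 in 94.9%. At least 10 Gal UMIs were found in 90.8% of them and at least 10 Th UMIs in 60.2%. Otp was found in 12.2% of them, at 4.69 CPM. Of the whole GABA side, Isl1 was found in 50.9%, Dlx1 in 55.8%, Gsx1 in 18.1% and Otp in 18.3%. Six3 was found in 66.7% of that side, Rora in 45.2%, Zic1 in 36.9% and Six6 in 51.6%. Of the 70 GABA-side cells with at least 10 Th UMIs, 59 (84.3%) were Ghrh cells. The Avp cells of the GABA side carried Six3 in 99.5%, Rora in 99.1%, Zic1 in 97.2% and Six6 in 96.8%, a set known from the suprachiasmatic nucleus, and Isl1 in 4.61%. Their Scg2 stood at 3862 CPM and Vgf at 798 CPM, against 1157 and 213 CPM in the GABA-side cells with none of the 4 peptides. The Sst cells, whose peptide is somatostatin, carried Isl1 in 85.2%, Six6 in 81.5% and Otp in 77.8%. Median depth differed between these groups, from 14741 UMIs in the Avp cells to 29205 in the Agrp cells, so a gene missing from an Avp cell is less certain. Sst was not particular to the GABA side. In the 106 glutamate-side cells with Otp and no Foxb1, it stood at 1095 CPM and had a UMI in 34.0%. That share counts any UMI, and the Agrp cells had one of 34.3% with Sst at 27.1 CPM.

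Most of the glutamate side, 339 cells (56.6%), had a UMI of Foxb1. For this group 1 UMI was enough, and 5.31% of GABA-side cells had a Foxb1 UMI as well. Whether some of the 339 cells held only free Foxb1 RNA was not tested. In the 339 cells Nkx2-1 was found in 95.9%, Lhx1 in 91.7% and at least 10 Cck UMIs in 80.2%, and Otp in 7.67%. Of glutamate-side cells without Foxb1, Lhx1 was found in 15.0% and at least 10 Cck UMIs in 11.9%. Levels of several called genes were highest in the Foxb1 cells: Cck stood at 1535 CPM in them, 40.6 CPM in the 106 cells (17.7%) with Otp and no Foxb1, and 328 CPM in the remaining 154 cells (25.7%). In the same order Rprm stood at 1820.2, 153 and 141 CPM, Lhx1 at 426, 7.35 and 19.0 CPM and Nxph4 at 307, 100.2 and 32.7 CPM. Grm2 stood at 122.5, 8.05 and 9.65 CPM in that order, Epha7 at 196, 9.81 and 25.2 CPM and Nefm at 285, 66.2 and 38.6 CPM. Nefl stood at 685, 248 and 177 CPM, Cartpt at 382, 37.1 and 67.9 CPM and Nts at 384, 5.95 and 71.0 CPM. Nhlh2 was more even, at 99.8, 72.1 and 129.5 CPM. Nkx2-1 was not particular to the Foxb1 cells: it was found in 20.8% of the 106 Otp cells and 85.1% of the remaining 154. Median depth in the same order was 26154, 27319 and 19176.5 UMIs, so a gene missing from the last group is less certain.

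Hormone peptides were highest in the 106 Otp cells without Foxb1: Avp at 23864 CPM, Oxt at 6024 CPM and Trh at 732 CPM, against 93.4 CPM, 10.3 CPM and 7.78 CPM in the 154 cells with neither factor and 702 CPM, 12.6 CPM and 75.2 CPM in the 339 Foxb1 cells. Of the 19 glutamate-side Avp cells, 18 had Otp, all 19 had Ebf3 and 17 had Sim1, and all 5 Oxt cells had Otp and Sim1. In the 19 glutamate-side Avp cells Six6 and Zic1 were each found in 1 cell (5.26%), Six3 in 7 (36.8%) and Rora in 10 (52.6%, at most 3 UMIs), at a median depth of 33920 UMIs. In the 217 GABA-side Avp cells, at a median depth of 14741 UMIs, Otp was found in 12 (5.53%), and Ebf3 and Sim1 in 0. A count of 0 allows a share of up to 1.38% of cells with a UMI and sets no limit on cells expressing the gene, and the depths of these Avp cells differed. Of the 36 Trh cells, 34 had Otp and 29 had Neurod1. Sim1 was not confined to the Otp cells, since 237 of the 316 Sim1 cells had Foxb1. Nr5a1, the marker gene of the ventromedial nucleus, was found in 18 glutamate-side cells (3.01%).

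**Figure D4:**
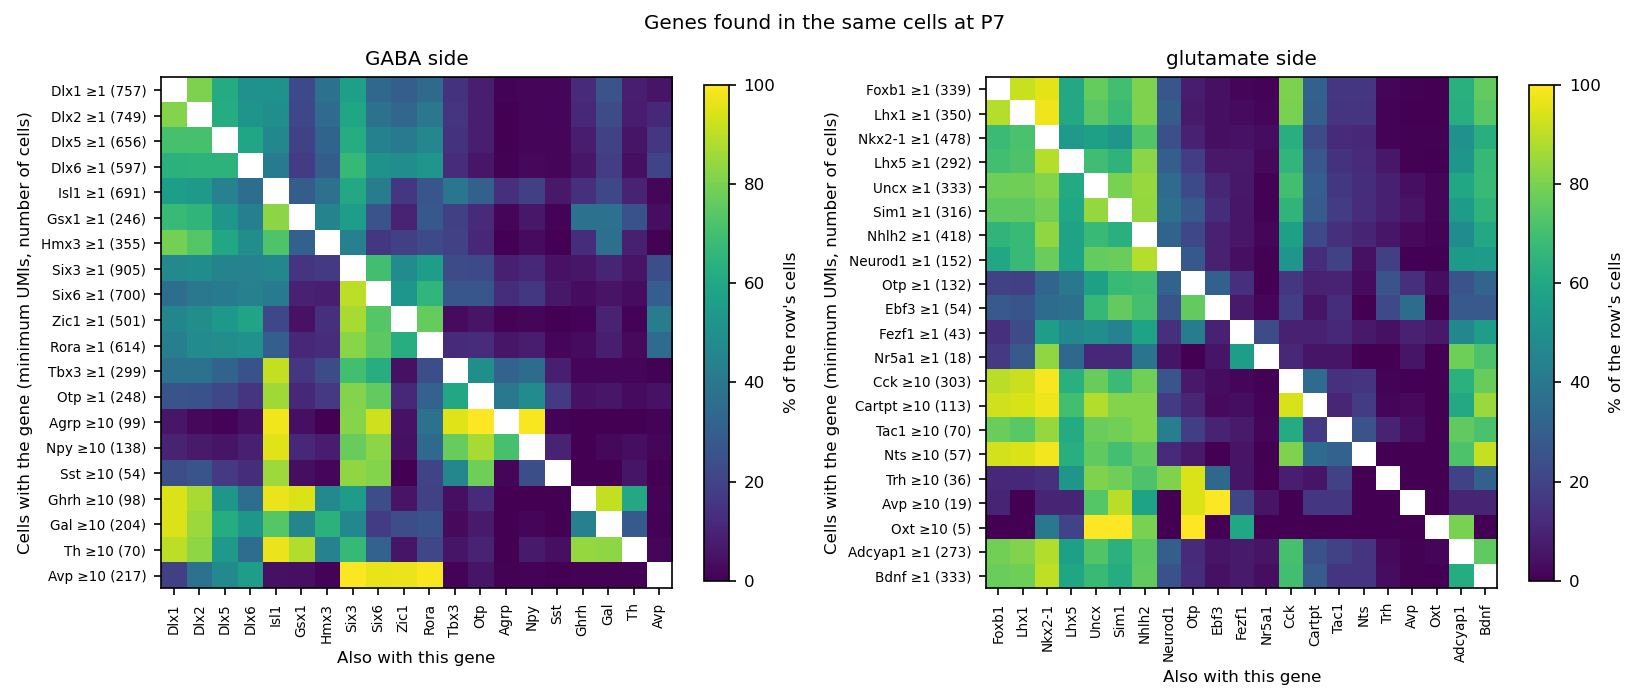
Share of the cells of each row's gene that also carried the column's gene, for the GABA side (left) and the glutamate side (right) at P7; the label gives the minimum UMIs for each gene and the number of cells. On the left the Agrp row is bright at Otp and Npy and dark at Dlx1, the Ghrh row the reverse, and on the right the Foxb1 row is bright at Lhx1, Nkx2-1 and Cck while the Avp and Oxt rows are bright at Otp.

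The same sides were formed by the same terms in cells that the choice of genes had not used: both P0 runs, E14 run 2 and E11 run 2, the runs with at least 50 cells a side. The run number is the one in the cells' names, and runs of 1 age belong to 1 sample. At P0 the sides held 250 and 55 cells in run 1 and 2050 and 765 in run 2, at E14 3463 and 507, and at E11 628 and 499. The GABA side made up 69.4% of the cells on either side at P7, 82.0% and 72.8% in the P0 runs, 87.2% at E14 and 55.7% at E11. Those shares cannot be compared as such, because median depth on the GABA side ran from 7174.5 to 18274 UMIs and shallower cells miss more of the chosen genes. Of all genes past the filter, 2.64% and 2.03% were called on the GABA and glutamate side in P0 run 1, 0.677% and 1.07% in P0 run 2, 0.729% and 1.05% at E14, and 1.38% and 2.09% at E11.

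Of the 12 genes named for the GABA side at P7, all 12 were called on that side in both P0 runs, 10 of the 11 past the filter at E14 and 9 of 11 at E11. Of the 12 for the glutamate side, 11 of 11 past the filter were called there in P0 run 1, 11 of 12 in run 2, 11 of 11 at E14 and 7 of 8 at E11. The P0 run 1 calls rest in part on few UMIs, with 55 cells on its glutamate side. Ghrh, Agrp, Six6, Dlx2 and Gm14204 each had 1 UMI in those cells. Trh was called on 5 UMIs of the GABA side and 6 of the glutamate side. Foxb1 and B230323A14Rik, which overlap, are counted separately. Of all 133 genes called on the GABA side at P7 outside the choice, 110 passed the filter in P0 run 2, 102 had the same sign and 44 were called there. Of the 206 for the glutamate side, 185 passed, 183 had the same sign and 81 were called. In P0 run 1, 83 of 98 and 140 of 178 had the same sign and 43 and 56 were called. Genes called on the other side numbered 1 for each list in P0 run 1, and 1 and 0 in run 2. At E14, 65 of 84 and 109 of 155 had the same sign, 29 and 40 were called on the same side and 1 and 4 on the other. At E11, 52 of 81 and 86 of 131 had the same sign, 37 and 38 were called on the same side and 4 and 8 on the other.

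The named genes took different courses. Dlx1 was already apart at E11 (log2 5.44; 402 against 4.40 CPM), E14 (4.37) and P0 (4.45 and 4.77), as was Dlx2 (log2 5.36 at E11). On the glutamate side Sim1 was apart at E11 (log2 -4.79), as were Nrn1 (-5.87) and Nhlh2 (-4.14). Ghrh had a log2 ratio of -0.47 at E11 (GABA side 6.55 CPM), 0.55 at E14 (25.3 CPM), 1.54 in P0 run 1 (15.7 CPM), 3.45 in P0 run 2 (118 CPM) and 5.78 at P7 (1307 CPM). Agrp was under the filter at E11 and E14, and stood at 22.3 and 52.3 CPM on the GABA side at P0 and 492 CPM at P7. Foxb1 ran from 5.93 CPM on the glutamate side at E11 to 53.5 at E14, 125 and 194 at P0 and 337 at P7. With 1 sample at each age these are the values of those samples, and no trend was tested.

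**Figure D5:**
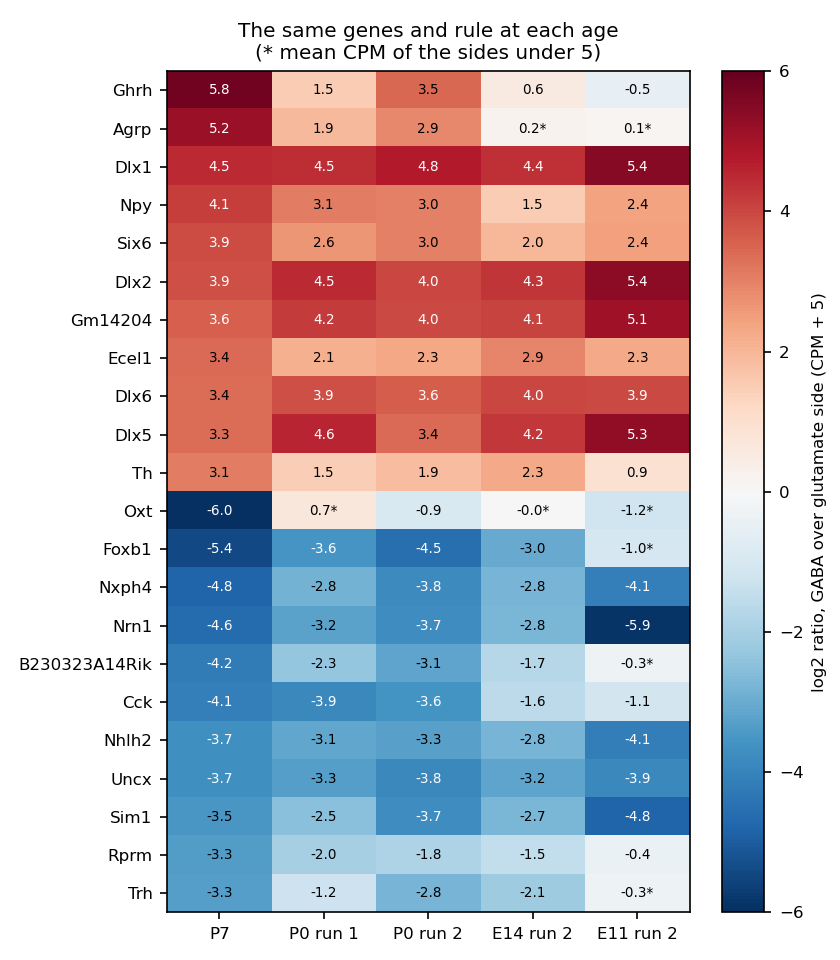
Log2 ratio of CPM + 5, GABA side over glutamate side, for genes named at P7, in the sides formed by the same terms at each age and run; an asterisk marks genes whose mean CPM was under 5. The Dlx rows are dark red at every age, while Ghrh and Agrp lie between -0.47 and 0.55 at E11 and E14 and reach 5.78 and 5.19 at P7.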

How the data were processed

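Single-cell 3-prime RNA libraries were made from sorted hypothalamic cells at 4 ages, 1 sample each, per the labels' protocols. The authors deposited 1 table of UMI counts for 28879 genes in 43261 cells; all values are whole numbers and no normalization was found in them. The submitters' processing notes name Cell Ranger 3.0.2, Seurat and the build mm10, with no role given; the annotation and the authors' filters on cells are not given in the sources used here. All cell columns were mapped to an age by their names, and 0 columns lay outside the samples.

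Counts were summed over the cells of a side and scaled to CPM, with exact Poisson intervals for sums and exact Clopper-Pearson intervals for shares, both at 95% and both for counting error only. Genes with a mean of at least 5 CPM were called at 2-fold on the CPM + 5 scale. On counts of both P7 sides simulated for 28879 genes, 97% of 4-fold genes, 0% of 1.5-fold genes and 0% of unchanged genes were called. These shares check the size rule on simulated counts. They are not an error rate for the real calls, since there is 1 sample at each age. The rule for naming genes took the 12 largest log2 ratios in each direction among called genes detected in at least 10% of the higher side's cells, without the 7 genes of the choice, and then the called members of 21 gene lists (431 genes). The sides, the lists and the rule were chosen with earlier results of these data known. The co-detected genes, neighbouring pairs, promoters and motifs were chosen after the values had been seen, and the windows of Dlx1, Dlx2 and Sim1, considered first, were set aside. Those of Dlx1 and Sim1 were set aside for reaching into annotated gene bodies, although the windows shown also reach into the partner gene. Doublets were not removed in the values given; Scrublet (in Scanpy 1.11.5) marked 226 of 8917 P7 cells (2.53%), and leaving them out was an alternative, as were other minimum UMIs, pseudocounts, filters, scalings and sets of cells. Cells were thinned to 5000 UMIs where shares were compared, which left out 10, 9 and 294 cells of the GABA side, the glutamate side and the Pdgfra cells. Python 3.11.15, numpy 2.4.6, scipy 1.17.1 and pandas 2.3.3 were used. Results for some genes that the rule named are not reported here.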

Additional observations from a re-analysis of the deposited data

Results flagged for a closer look

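Vgf, Tcf7l2 and Epha4, all called at P7, had the opposite sign in both P0 runs; the difference between the ages was not tested. Vgf had a log2 ratio of the GABA to the glutamate side of 1.38 at P7, against -0.52 and -0.19 at P0, where its sums were 44.2 and 65.6 CPM in run 1 and 63.3 and 73.1 CPM in run 2. Tcf7l2 had 1.26 at P7, against -1.14 and -1.60 at P0, and its glutamate-side level was 6.15 CPM at P7 against 199 and 174 CPM at P0. Epha4 had -1.20 at P7, against 0.94 and 0.20 at P0, with 74.8 CPM on the glutamate side at P7 against 10.6 and 47.7 CPM at P0. The first P0 run held 55 glutamate-side cells, and its Epha4 and Vgf sums there rested on 5 and 31 UMIs.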

How the results depend on the processing

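The pseudocount moved the counts of called genes most: with 1 CPM in place of 5, 209 genes were called on the GABA side and 325 on the glutamate side, and with 20 CPM 57 and 101. Under the other alternatives these counts stayed within 1.5 times of 136 and 207, from 92 to 153 and from 150 to 234. Scaling by the median ratio gave 127 and 231. The cells of each side numbered 1008 to 1483 and 471 to 764 over the alternatives run on them. Of 106 named genes, 0 changed direction in any of the 15 alternatives, but those on the pseudocount and the filter cannot change a sign and the scaling shifts all genes alike. The number still past 2-fold ran from 73 (20 CPM) to 106. Without the cells marked as doublets 104 remained past 2-fold, without cells holding 3 or more glial UMIs 105, and after thinning to 5000 UMIs 99. No paired analysis was possible because there is 1 sample per age and both sides come from the same library. The limits are the single sample, the choice of sides by the same counts, the 532 neurons with both kinds left out, and the 5 cells behind the Oxt value.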

Other observations

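The 532 neurons with UMIs of both kinds, which neither side holds, had a median of 23826.5 UMIs. Summed, they stood at 244 CPM for Agrp, 517 CPM for Pomc, 344 CPM for Cck and 117 CPM for Foxb1. Pomc, which encodes the precursor of appetite-lowering peptides, was higher in them than in the GABA side (128 CPM) and the glutamate side (40.8 CPM). The genes of the choice stood at 117 CPM (Gad1) and 275 CPM (Slc17a6) in these cells, and Scrublet marked 25 of them (4.70%) as doublets, against 3.83% of the GABA side and 1.67% of the glutamate side. The values are given with no test, since the cells come from 1 sample.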
